A study of Mus musculus with 6 samples.

Results

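Genes that laboratories often use as internal references in quantitative RT-PCR (qRT-PCR) were followed in H22 tumours, namely Actb, Actg1, Hprt, Tbp, Ppia, Gusb, Tfrc and Ywhaz. They were taken by symbol from the deposited table, 8 of its 21720 genes, without regard to their values. H22 is a mouse hepatocellular carcinoma cell line, and the tumours grew under the skin of female BALB/c mice aged 6 to 8 weeks. Control mice were given 0.5% carboxymethyl cellulose sodium by gavage, and luteolin mice were given luteolin, a plant flavonoid, at 200 mg/kg. Both were dosed once daily for 21 days in 0.2 mL. RNA of whole tumours was sequenced in 3 libraries per group, labelled wild type, so the libraries hold tumour cells together with host cells. The labels do not say whether the libraries of a group came from separate animals, and p values then measure only the spread between these samples. Library totals ranged from 61081637 to 80442954 counts.

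A reference gene is measured beside a target so that differences in the amount of input RNA cancel. It does so only if its own RNA per unit of total RNA is the same in the samples compared, since any difference in the reference passes into every target with the opposite sign. Cytoplasmic actins build the cell cortex and stress fibres, the other 6 genes serve unrelated processes, and in bulk tumour tissue all of them are read from a mixture of cell types. The qRT-PCR of the study was normalized to β-actin, the product of Actb.

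The primers that defined β-actin in the qRT-PCR are shown first, because they decide which RNA the reference reads. The capitals mark bases that differ from the closest place in an Actg1 transcript.
forward: cctcactgtccaccttcc
reverse: GggTgTAaAacgcagctc
The forward primer matched Actb at chr5:142903869-142903886 on the minus strand (GRCm38), in the coding part of exon 6 of 6. Its 18 bases were also present without mismatch in Actg1, and 14 annotated genes held the exact site. The reverse primer lay at chr5:142903767-142903784 in the 3′ UTR, 14 bases after the stop codon, and differed from the closest Actg1 place at 5 bases. That place lay in the coding part of Actg1, at transcript base 401, before the forward site at base 1164. It is therefore not the counterpart of the Actb site. Only Actb and the annotated genes Gm4750 and Gm8464 held the reverse site exactly, and the primers span 120 bp. The coding sequences of Actb and Actg1 were 88.7% identical over 1128 bases, with a longest shared run of 62 bases, and their 3′ UTRs shared no stretch of 31 bases. Reads were 150 bases long, and how the counting treated reads shared by both genes is not given in the sources used here, so the split of counts between the 2 actins is uncertain.

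Actb, which encodes β-actin, was measured at 2472, 2294 and 1948 CPM, counts scaled to a column total of 1000000, in the control libraries and at 2769, 3842 and 2621 CPM in the luteolin libraries. All luteolin libraries lay above all control libraries, and luteolin replicate 2 stood well above the rest. The mean was 2238 ± 267 CPM (SD, n = 3) in control and 3077 ± 666 CPM (SD, n = 3) in luteolin, 1.37-fold higher with a 95% interval of 1.01 to 1.87. On the log2 scale the difference was 0.46 ± 0.19 (SE), with an adjusted p of 0.236 by the quasi-likelihood test of edgeR with Benjamini-Hochberg adjustment over 14963 genes. Actb was the only 1 of the 8 genes whose groups did not overlap, where 16.6% of all genes tested lay wholly higher and 11% wholly lower in luteolin. In this fit it was also the only 1 with an unadjusted p under 0.05 (0.0431), as were 14.6% of all genes in the higher and 5.21% in the lower direction. That p was at or above 0.05 in 4 of the 6 edgeR fits that left out 1 library, and the log2 difference was 0.27 without luteolin replicate 2. None of the 8 passed an adjusted p of 0.05, which 1.45% of all genes did as higher and 0.174% as lower.

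Actg1, the gene of the other cytoplasmic actin, did not share that difference. It stood at 2268, 2076 and 1621 CPM in control and at 1795, 2136 and 1552 CPM in luteolin, and the groups overlapped. The log2 difference was -0.12 ± 0.18 (SE), with a 95% interval of -0.56 to 0.31. Per kilobase of transcript, Actb was the more abundant actin, at a mean of 1681 CPM per kb over the 6 libraries against 1044 CPM per kb for Actg1. In the control libraries alone the means were 1416 and 1088 CPM per kb. The lengths used, 1581 bp for Actb and 1827 bp for Actg1, are medians over annotated transcripts. The longest Actb transcript is longer than 1581 bp, so the size of this gap is uncertain.

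Tfrc, the transferrin receptor that brings iron into cells, varied most. It was measured at 176, 349 and 696 CPM in control and at 148, 53.8 and 237 CPM in luteolin. The highest library held 12.9 times the lowest, and the groups overlapped because control replicate 1 lay below luteolin replicate 3. The means were 407 ± 265 CPM (SD, n = 3) and 146 ± 91.6 CPM (SD, n = 3). The log2 difference was -1.48 ± 0.64 (SE), with an interval of -2.99 to 0.04 and an adjusted p of 0.263 by edgeR. Its unadjusted p, 0.0545 in this fit, was 0.0121 with DESeq2, the tool of the study (adjusted p = 0.0822). The DESeq2 log2 difference was -1.52. Tfrc thus met the threshold of the study, an unadjusted p under 0.05 with a fold change over 2. In that fit 1.3% of all genes met it as lower. By edgeR the unadjusted p of Tfrc was 0.0191 with the replicate block and 0.0488 with at least 10 counts in every library. Under the 2 GC and length offsets described below it was 0.0035 and 0.0096 (adjusted p = 0.0508 and 0.0794). With TMM, RLE or upper-quartile scaling or no filter it was 0.0524 to 0.0571. It was 0.0308 without control replicate 1, 0.0278 without luteolin replicate 3, and 0.0864 to 0.227 without any other library. Without control replicate 3 the log2 difference was -0.84.

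The other 5 genes showed small differences between the groups. Gusb, the lysosomal enzyme β-glucuronidase, stood at 152, 139 and 129 CPM in control and at 128, 161 and 137 CPM in luteolin, with overlapping groups and a log2 difference of 0.02 (interval -0.34 to 0.38). Ppia, the peptidyl-prolyl isomerase cyclophilin A, was measured at 1423, 1387 and 1194 CPM in control and at 1169, 1420 and 1133 CPM in luteolin, a log2 difference of -0.11 (interval -0.46 to 0.25). The interval of Gusb holds no log2 difference as large as the 0.46 of Actb, and that of Ppia reaches -0.46.

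Hprt, which salvages purine bases, was at 36.1, 47.8 and 49.2 CPM in control and at 42.8, 42.2 and 42.9 CPM in luteolin. The luteolin libraries lay close together, inside the range of the control libraries. Its log2 difference was -0.06 (interval -0.47 to 0.36). Ywhaz, the 14-3-3 zeta adaptor protein, was at 706, 818 and 855 CPM in control and at 772, 609 and 852 CPM in luteolin, a log2 difference of -0.09 (interval -0.49 to 0.31). Tbp, the TATA-binding protein of the transcription machinery, was at 43.1, 47.7 and 54.4 CPM in control and at 47.8, 33.1 and 45.3 CPM in luteolin, a log2 difference of -0.20 (interval -0.67 to 0.26). In Tbp and Ywhaz the lowest library was luteolin replicate 2, the same library in which Actb was highest.

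**Figure D1:**
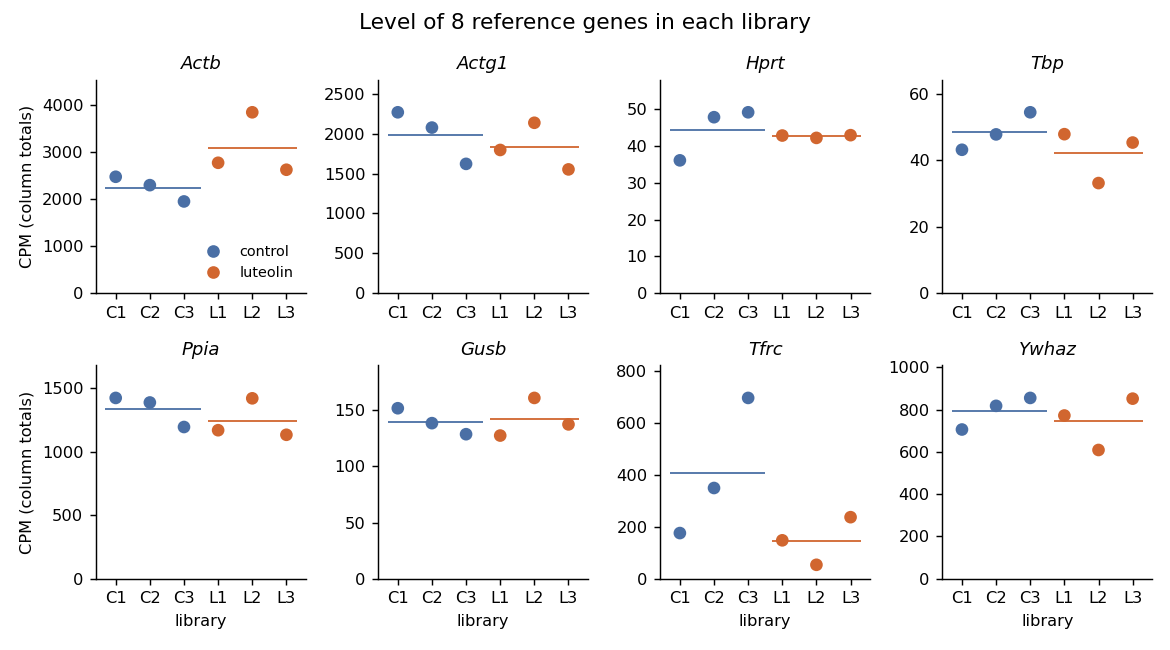
Level of each reference gene in CPM of the column total (vertical axis, from 0) in control libraries C1 to C3 and luteolin libraries L1 to L3. Points are libraries and lines are group means; in Actb the luteolin libraries, 2621 to 3842 CPM, all lie above the control libraries, and in the other 7 genes the groups overlap.

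Stability was described by the SD of log2 CPM over the 6 libraries, and each gene was placed among the 9928 genes with a mean of at least 10 CPM. The median SD of those genes was 0.309, and the middle of the distribution, from the lower to the upper quartile, ran from 0.209 to 0.471. Gusb had the smallest SD of the 8, 0.133, and 7.02% of genes had a smaller one. Ppia followed with 0.153, then Hprt with 0.158, Ywhaz with 0.190, Actg1 with 0.226 and Tbp with 0.241. Actb, at 0.328, was more variable than 54.2% of genes, against 46.6% with TMM scaling, and its SD was 0.197 without luteolin replicate 2. Tfrc, at 1.24, was more variable than 97.4% of them.

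This order depended on how base composition and the scale of each library were treated. The libraries differed in base composition. The Spearman correlation between a gene's GC content and its deviation in a library was 0.435, -0.174 and -0.535 in the control libraries. In the luteolin libraries it was -0.182, 0.441 and -0.368. An offset for GC content and transcript length was computed in 2 versions, and they gave opposite pictures of Actb. The first kept its intercept, so that it also centred each library on its mean log level, and moved the median log2 difference of all genes to -0.26. Under it, Actb had an SD of 0.115, smaller than in all but 1.67% of genes, its groups overlapped, and its log2 difference was 0.11 (adjusted p = 0.641 by edgeR). Under the same version Actg1, Tbp, Ppia, Gusb and Tfrc lay wholly lower in luteolin, as did 32.4% of all genes, while 12.8% lay wholly higher.

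The second version was made after the values of the first had been seen. It was fitted on genes with at least 10 CPM and centred so that column totals were kept, which left the median log2 difference of all genes at 0.02. Under it, the Actb groups again did not overlap (2356, 2268 and 2087 CPM against 2875, 3528 and 2724 CPM), with an SD of 0.275 and a log2 difference of 0.44 (adjusted p = 0.0924 by edgeR). Of all genes, 19.8% lay wholly higher and 16.4% wholly lower, among the 8 Ppia and Tfrc. Gusb then had an SD of 0.043, Ywhaz 0.069 and Ppia 0.091, whereas Hprt had 0.320. Whether Actb differed from the column total therefore depended on the version. Relative to the median of all genes, the Actb log2 difference was 0.42 by column totals, 0.38 in the first version and 0.42 in the second.

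**Figure D2:**
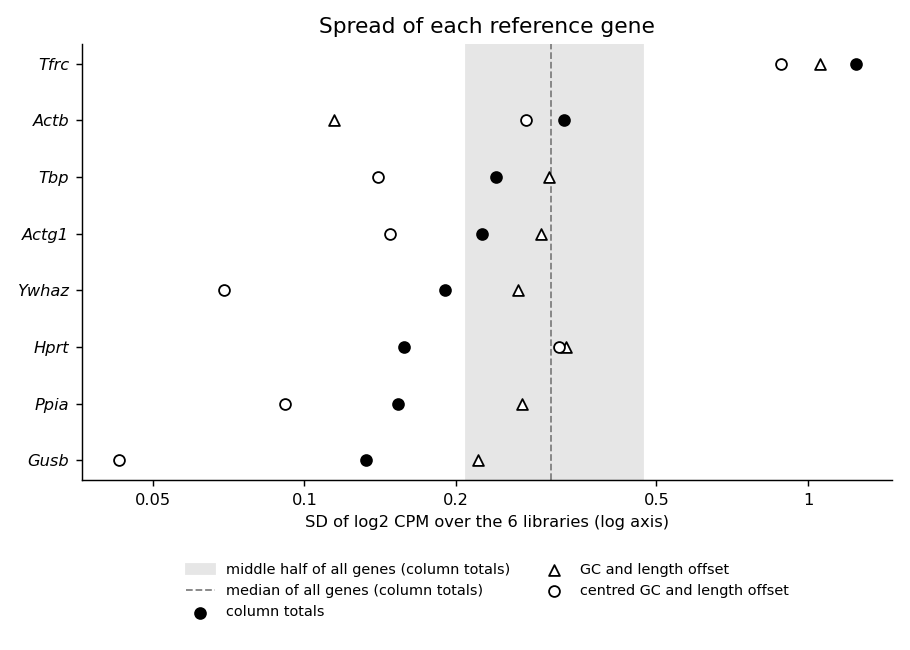
SD of log2 CPM over the 6 libraries (horizontal log axis) for each reference gene by column totals (filled circles) and under the first (triangles) and the centred second version (open circles) of the GC and length offset. The grey band spans the quartiles of all genes by column totals, 0.209 to 0.471, and the dashed line is their median; Actb moves from 0.328 to 0.115 in the first version and to 0.275 in the second, and Tfrc lies above the band in each.

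A ratio of 2 genes within a library does not depend on the library's scale. The ratio of Actb to Actg1 was 1.09, 1.11 and 1.20 in control and 1.54, 1.80 and 1.69 in luteolin. All luteolin ratios were higher, 1.68 ± 0.128 (SD, n = 3) against 1.13 ± 0.061 (SD, n = 3), and the log2 difference of 0.56 had an exact two-sided permutation p of 0.1, the smallest that 3 against 3 libraries allow. Actb to Ppia was 1.74, 1.65 and 1.63 in control and 2.37, 2.71 and 2.31 in luteolin, a log2 difference of 0.55. Actb to Gusb was 16.3, 16.6 and 15.1 in control and 21.7, 23.9 and 19.1 in luteolin, a log2 difference of 0.43.

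Of the 28 pairs among the 8 genes, 5 had groups that did not overlap, and Actb was in 4 of them. Relative to Actb, 33.9% of all genes tested lay wholly lower and 9.37% wholly higher in luteolin, so that a ratio in which Actb was higher had a large background. The fourth was Actb to Tbp, where control replicate 1 at 57.4 came close to the lowest luteolin ratio of 57.9. The 1 pair without Actb was Ppia to Gusb, with a log2 difference of -0.13. Actb to Hprt overlapped, with 68.5, 48.0 and 39.6 in control and 64.6, 91.0 and 61.0 in luteolin (exact permutation p = 0.3). The 7 ratios that hold Actb share its counts and are not independent. In the fit across all genes scaled to Ppia, the Actb log2 difference was 0.56 (unadjusted p = 0.0047, adjusted p = 0.0806 by edgeR), and scaled to Actg1 it was 0.57 (adjusted p = 0.117).

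**Figure D3:**
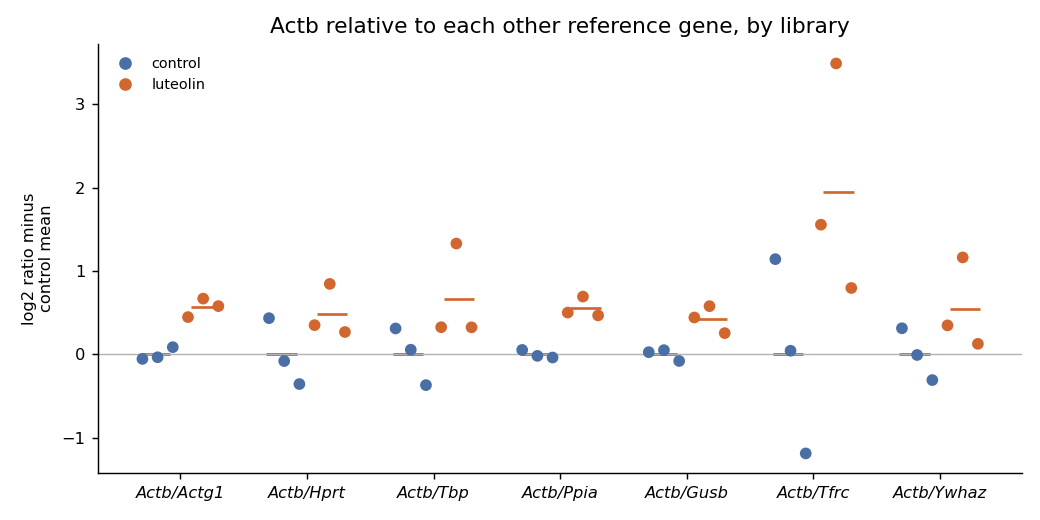
Log2 ratio of Actb to each other reference gene in each library, minus the mean of the control libraries (vertical axis). Points are libraries and short lines are group means; the luteolin points lie wholly above the control points for Actg1, Tbp, Ppia and Gusb, with log2 differences of 0.43 to 0.66.

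The mean SD of a gene's log2 ratio to the other 7 measures how well it keeps pace with them. It was lowest for Ppia (0.391), Gusb (0.398), Hprt (0.401) and Ywhaz (0.409). Tbp stood at 0.433 and Actg1 at 0.440, while Actb reached 0.562 and Tfrc 1.26. With 1 library left out, the value of Actb ranged from 0.392 to 0.619. Taken within the groups, Actb stood at 0.410, beside Actg1 at 0.413 and Tbp at 0.406. Within the groups Ppia was at 0.355, Gusb at 0.361, Hprt at 0.377, Ywhaz at 0.385 and Tfrc at 1.08. When the least steady gene over the 6 libraries was taken away in turn, Tfrc left first and Actb second. Actg1 with Ppia remained as the last pair, with an SD of their log2 ratio of 0.093. Tfrc and Actb went in opposite directions over the libraries: the Pearson correlation of log2 CPM with Actb over 6 libraries was -0.97 for Tfrc, -0.93 for Tbp and -0.83 for Ywhaz, and 0.67 for Gusb, 0.37 for Actg1 and 0.32 for Ppia. These are descriptions of 6 shared libraries that also differ in base composition.

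Among 9927 other genes, those whose log2 CPM was most like Actb were Hdac5 (r = 0.997), Rps6kb2, Jak3, Vps51 and Erf (r = 0.995). Hdac5, a histone deacetylase, was at 39.5, 33.1 and 25.7 CPM in control and at 44.4, 73.2 and 40.5 CPM in luteolin. The 100 genes most like Actb had a median GC content of 55.9%, against 50.4% over all genes ranked and 51.1% for Actb itself. The smallest SDs belonged to Rbm17 (0.027), Srgap2, Arpc2, Tmem186 and Emc3. Arpc2, a subunit of the complex that branches actin filaments, was at 333, 330 and 335 CPM in control and at 346, 341 and 352 CPM in luteolin.

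Replacing the column total by the Actb count showed what this reference does to the whole table. In the edgeR fit with column totals, 1757 genes (11.7%) were higher and 207 (1.38%) lower in luteolin. The threshold was that of the study, an unadjusted p under 0.05 with a fold change over 2. Scaled to Actb, 1004 (6.71%) were higher and 716 (4.79%) lower, so that the share of higher genes among those called went from 89.5% to 58.4%. All 1004 were among the 1757, and all 207 were among the 716. The median log2 difference of all genes moved to -0.40. DESeq2, the tool of the study, gave 2004 higher and 282 lower genes at that threshold, the counts of the paper, and was not run scaled to Actb.

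At an adjusted p under 0.05, the edgeR test called 217 genes higher and 26 lower with column totals and 0 in either direction scaled to Actb. The calls with column totals also fell to 0 in both directions without control replicate 1, 2 or 3 or luteolin replicate 1. At the threshold of the study the same fits gave 1403, 1301, 1527 and 1823 higher genes, in that order. A fit with 1 library fewer also has less power, so the part of each library was not tested. Scaled to Actb, the smallest adjusted p was 0.0844, and 1257 genes were higher and 3207 lower at an unadjusted p under 0.05. Scaled to Actg1, the calls were 335 higher and 7 lower, to Ppia 479 and 17, to Hprt 292 and 20 and to Gusb 252 and 16. Scaled to Tbp they were 77 and 6, and to Ywhaz 39 and 3. Scaling to Tfrc gave 1632 higher and 1 lower, with a median log2 difference of all genes of 1.61. The geometric mean of the 8 genes gave 323 and 18.

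**Figure D4:**
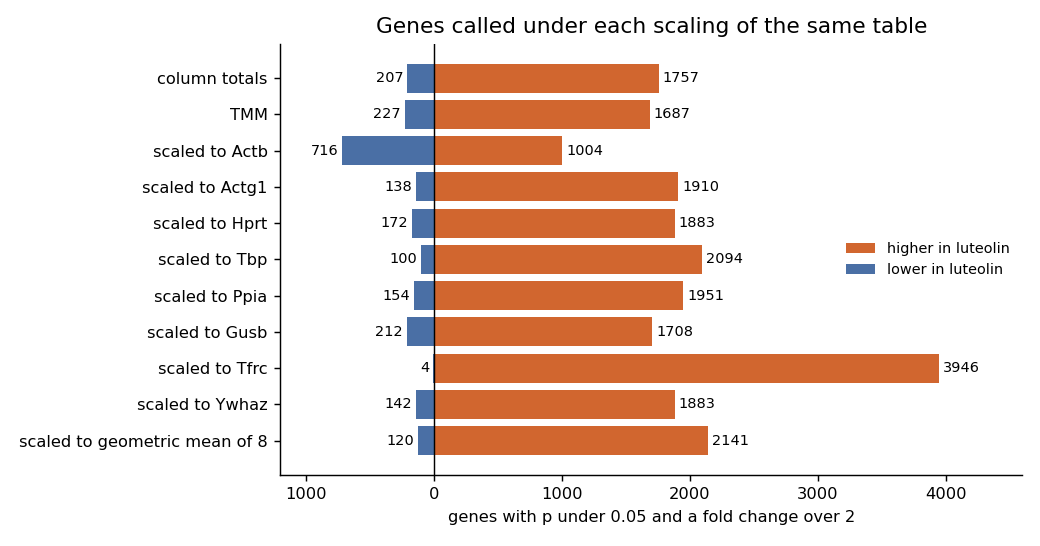
Number of genes with an unadjusted p under 0.05 and a fold change over 2 (horizontal axis) that were higher (right) or lower (left) in luteolin, with the same table scaled in 11 ways. Scaling to Actb gives 1004 higher and 716 lower genes, scaling to Tfrc gives 3946 and 4, and the column total gives 1757 and 207.

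The 12 targets of the qRT-PCR were then read from the sequencing table relative to Actb. This list was chosen by the study and is not independent evidence of direction. Of the 12, 7 lay wholly higher in luteolin relative to Actb, where 9.37% of all genes did, and 7 by column totals, where 16.6% did. Each of the 7 had an exact permutation p of 0.1 (adjusted p = 0.171 over the 12). These were Cd3e and Cd8a of T cells, the chemokines Ccl5 and Ccl21a, and the effector genes Gzmb, Ifng and Tnf. In the edgeR fits across all genes, 4 of the 12 passed an adjusted p of 0.05 by column totals, 0 scaled to Actb (smallest adjusted p 0.0844) and 5 scaled to Actg1. Cd8a was measured at 606, 1059 and 763 counts per 1000000 Actb counts in control and at 4097, 2550 and 4031 in luteolin. Its log2 difference was 2.12 relative to Actb, 2.57 by column totals and 2.69 relative to Actg1. For Ccl21a, taken for the target Ccl21, the control libraries held 32, 9 and 0 counts, so its difference of 4.46 rests on few counts and on the prior of 2 counts.

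Of the targets related to apoptosis, 4 are given here, and they lay near 0 by column totals. Changing the reference shifts every target by the same amount, -0.45 on the log2 scale from the column total to Actb, so the signs below follow from that shift. Casp8 differed by -0.57 on the log2 scale relative to Actb, by -0.13 by column totals and by -0.01 relative to Actg1. Casp9 stood at -0.42, 0.02 and 0.14, and Bcl2, which restrains apoptosis, at -0.48, -0.03 and 0.09. Bax, which promotes it, stood at -0.12, 0.33 and 0.45. All 4 were negative relative to Actb, 2 by column totals, 1 relative to Actg1 and 0 relative to Tfrc, and under none of these references did the groups of any of the 4 separate. Over the 12 targets the median log2 difference was 1.74 relative to Actb, 2.18 by column totals and 3.68 relative to Tfrc.

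**Figure D5:**
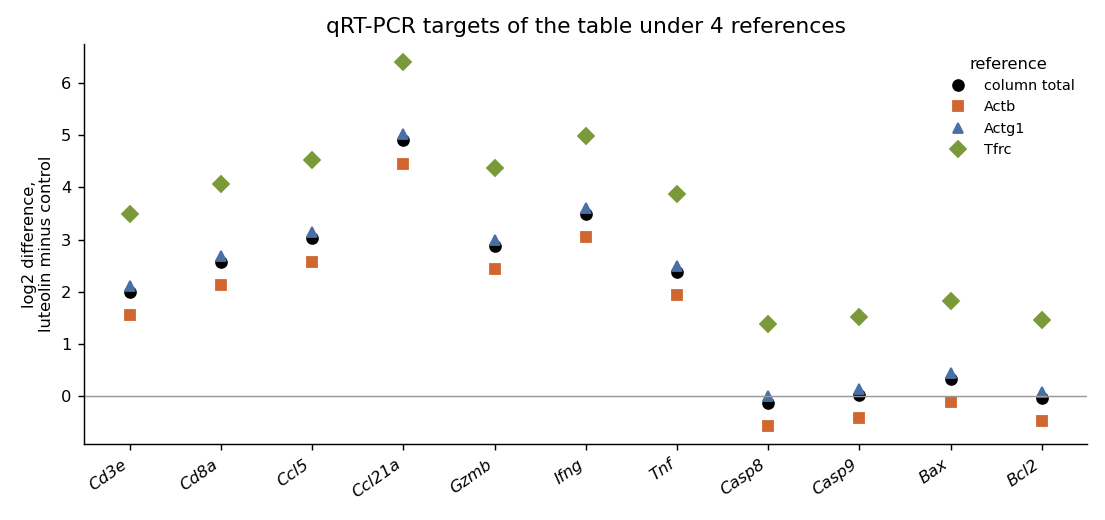
Log2 difference between luteolin and control (vertical axis) of 11 qRT-PCR targets, read from the sequencing table with the column total, Actb, Actg1 or Tfrc as reference. Each reference shifts all targets by 1 amount, -0.45 for Actb against the column total, which puts the 4 apoptosis genes at -0.57 to -0.12 relative to Actb.

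Genes of the same families and pathways were counted in lists, and each count below at an unadjusted p under 0.05 stands against 14.6% of all genes higher and 5.21% lower. Of 20 further common reference genes, 0 passed an adjusted p of 0.05 in the edgeR test, 2 were higher and 1 lower at an unadjusted p under 0.05, and the median log2 difference was -0.12 against 0.04 over all genes. Gapdh and Eef1a1, the most abundant of them, differed by -0.05 and -0.17. B2m, named after its values were seen, was at 227, 444 and 328 CPM in control and at 723, 1173 and 671 CPM in luteolin, with a log2 difference of 1.36 (adjusted p = 0.0849 by edgeR).

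Among 4 muscle actins, Acta2, the smooth muscle form, was at 36.4 ± 8.5 CPM (SD, n = 3) in control and 71.3 ± 12.95 CPM (SD, n = 3) in luteolin (adjusted p = 0.0887 by edgeR), and Acta1 differed by 0.13. Of 34 genes of actin dynamics, 4 were higher and 2 lower at an unadjusted p under 0.05, with a median log2 difference of 0.04, close to that of all genes. Flna and Myh9 differed by -0.19 and -0.11. Of 15 actin regulators of leukocytes, 12 were higher at that p, and Wipf1 was the 1 that rose in the adjusted test of edgeR, by 1.17 (adjusted p = 0.048). Their median log2 difference was 1.15, and 0.66 without luteolin replicate 2. The most abundant, Lcp1 and Arpc1b, differed by -0.22 and 0.32.

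Tfrc mRNA carries iron-responsive elements, hairpins through which iron-regulatory proteins stabilize it when iron is scarce, and they are shown because they set this gene apart as a reference. The whole Tfrc transcript of GENCODE M21 was searched for the loop CAGTGN with a C 6 bases before it. The search found 5 stretches, all in the 3′ UTR (GRCm38, plus strand, exon 19). The capitals mark the loop bases CAGTG.
chr16:32631225-32631241: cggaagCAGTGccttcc
chr16:32631604-32631620: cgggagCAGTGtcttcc
chr16:32631651-32631667: ctaccaCAGTGtctata
chr16:32631669-32631685: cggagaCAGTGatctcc
chr16:32631716-32631732: cgggaaCAGTGtttccc
In 4 of them, all but the third, the 5 bases on each side of the loop could pair, with G opposite T allowed. Of 21875 protein-coding genes, each searched over its whole longest transcript, 1.24% held at least 1 such paired stretch and only Tfrc held 4. A match is a description of letters and not a measured site.

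Of 15 genes of iron handling, 6 were higher and 2 lower at an unadjusted p under 0.05. Hmox1, which degrades haem, rose by 1.39 (adjusted p = 0.034 by edgeR), and Slc11a1, a metal transporter of phagocytes, by 2.01 (adjusted p = 0.047). The ferritin chains that store iron, Fth1 and Ftl1, were most abundant. Fth1 was at 572, 391 and 309 CPM in control and at 727, 1330 and 648 CPM in luteolin, with groups that did not overlap (log2 difference 1.09, adjusted p = 0.153 by edgeR), and Ftl1 differed by 0.81.

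The families of the other references were counted in the same way. Of 16 purine genes, 2 were higher and 3 lower at an unadjusted p under 0.05, among them Xdh, which rose by 2.18 (adjusted p = 0.030 by edgeR), while Paics and Atic differed by -0.54 and -0.30. Of 19 partners of Tbp, 0 were higher and 1 lower, Taf1 at -0.80, and Btaf1 differed by -0.11. Of 12 cyclophilins, 1 was higher, Ppic at 1.27, and 0 lower, and Ppib and Nktr differed by -0.16 and -0.08. Of 20 lysosomal hydrolases, 1 was higher and 1 lower, and Ctsd differed by 0.16. Of 6 other 14-3-3 genes, Sfn alone was higher, at 0.795 ± 0.062 CPM (SD, n = 3) in control and 12.9, 225 and 1.31 CPM in luteolin, and Ywhae and Ywhag differed by -0.14 and -0.11.

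In the lists of T cell, macrophage, neutrophil, fibroblast, endothelial and keratinocyte markers the median was higher in luteolin, as Actb was. Skeletal muscle and erythroid genes, also of host cells and given below, were not higher. The median of the hepatocyte and hepatoma list, given below as well, was higher too, at 1.33 on the log2 scale. Without luteolin replicate 2, the medians of the lists named first were all smaller but still higher in luteolin. The endothelial median went from 1.10 to 0.39 and the macrophage median from 0.78 to 0.56. The hepatocyte and hepatoma median went to 1.66. Summed T cell markers were 15.5 to 17.1 CPM in control and 52.7 to 104 CPM in luteolin, with 9 of 9 higher at an unadjusted p under 0.05, Cd4 by 1.69 and Lck by 2.02 on the log2 scale. Macrophage markers summed to 1722 to 2121 CPM and 2208 to 3289 CPM, with 6 of 9 higher and Lyz2 and C1qa at 0.28 and 0.84. Neutrophil markers had 5 of 7 higher, Csf3r by 2.30 and Mmp9 by 0.84, fibroblast markers 7 of 8, Col1a1 by 1.45 and Col3a1 by 1.28, and endothelial markers 3 of 7, Pecam1 by 1.10 with Cdh5 at 0.72. Keratinocyte markers summed to 3.80 to 4.80 CPM in control and to 408, 9957 and 16.8 CPM in luteolin, with 9 of 9 tested higher. Krt14 was at 0 counts in all control libraries, and Krt10 was at 3.74 CPM in control and 719 CPM in luteolin. The part of these cells in the Actb values was not tested, and fewer cells of a type and less RNA per cell cannot be told apart in bulk tissue.

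Of 8 skeletal muscle genes 0 were called in either direction, with Myh4 at -1.22 and Acta1 at 0.13, and the groups of each overlapped. Erythroid genes lay lower in luteolin: their summed CPM was 26.1 to 34.7 in control and 8.21 to 24.8 in luteolin. Of the 5 tested, 1 was lower at an unadjusted p under 0.05 (Hbb-bs at -1.16), and the median was -1.04. Of these 5, 3 lay wholly lower in luteolin (Hbb-bt at -1.08 among them), as did 11% of all genes tested. Of the hepatocyte and hepatoma genes 7 were tested, 1 was higher (Gpc3 at 2.78) and 1 lower (Afp), and their median log2 difference was 1.33. Apoa1 and Ttr, defining hepatocyte genes, lay near 0 in every library. Afp, a hepatoma gene, was at 55.7 ± 12.1 CPM (SD, n = 3) in control and 38.3 ± 5.36 CPM (SD, n = 3) in luteolin, and Krt18 differed by -0.18. Of 10 mitotic genes 1 was lower, Mki67 at -0.59, and Top2a differed by -0.50. Their summed CPM was 2034, 2487 and 2973 in control and 1942, 1469 and 2297 in luteolin, the same order over the 6 libraries as Tfrc. Whether the share of dividing cells had a part in the Tfrc values was not tested.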

How the data were processed

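RNA-seq of H22 tumours was analysed in 3 control and 3 luteolin libraries. The deposited table gives each gene symbol a whole number per library, treated here as estimated counts because low values clustered. Of values from 1 to 40, 44.8% were multiples of 4, against 25% in an even spread. One unit need not be 1 read pair. The submitters' processing notes name bcl2fastq 2.0, HISAT2, StringTie and DESeq2 and the builds mm39 and rn6, without roles. No coordinates were taken from the table. Transcript lengths, GC content and sites came from GENCODE M21 (GRCm38), which held 21053 of the 21720 symbols. The labels and the paper name different RNA and library kits.

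The main fit used R 4.3.3 and edgeR 4.0.16 (filterByExpr, column totals, quasi-likelihood test, no covariate, two-sided, Benjamini-Hochberg adjustment over 14963 genes). Log2 levels have a prior of 2 counts. Ratios were compared by exact permutation tests. Alternatives were TMM, RLE and upper-quartile scaling, DESeq2 1.42.0, other filters, a replicate block, 2 GC and length offsets, each reference gene as scale, and leaving out each library. The planned GC and length offset was run first. The centred version was added after its values had been seen, because the first also moved the median of all genes, and both are reported. In simulated data with a log2 difference of 2, 51.8% of 195 changed genes were recovered at an adjusted p under 0.05.

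Correlations of deviations between libraries of the same replicate number were -0.197, -0.0877 and 0.0629, against -0.125 to 0.196 between libraries of different numbers. These deviations also carry the differences in base composition, so whether the numbers pair the libraries was not settled. The genes and lists were chosen with earlier results of these data known. Genes named are the 8 references, the 12 targets, the 5 genes most like Actb, the 5 with the smallest SD, and the 2 most abundant of each list, with others marked by their test. Some genes of this rule are not reported here. Of the per-sample columns, 0 were left out.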

Additional observations from a re-analysis of the deposited data

How the results depend on the processing

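At an adjusted p under 0.05, against 217 higher and 26 lower genes, DESeq2 gave 1543 and 415, no filter on low counts 124 and 14, the first GC and length offset 582 and 379, and its centred version 779 and 266. The replicate block gave 50 and 1, though whether the numbers pair the libraries was not settled, and at least 10 counts in every library gave 44 lower. At the threshold of the study the first offset gave 505 lower genes. Gusb changed sign, to -0.020 with TMM, -0.031 with RLE, -0.032 with DESeq2, -0.32 under the first offset and -0.0084 under the centred one, and Hprt to 0.11 under the centred one. The SD of Actb was 0.115 under the first offset, with Hprt 0.331, Ppia 0.271 and Gusb 0.221. Under the centred one Actg1 was 0.148, Hprt 0.320, Tbp 0.140, Ppia 0.091, Gusb 0.043 and Ywhaz 0.069. The cause of these shifts was not tested.

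In place of Actb, the adjusted calls were 335 higher and 7 lower with Actg1, 292 and 20 with Hprt, 77 and 6 with Tbp, 479 and 17 with Ppia, 252 and 16 with Gusb, 1632 and 1 with Tfrc, 39 and 3 with Ywhaz, and 323 and 18 with the geometric mean of 8. At the threshold of the study these were 1910 and 138, 1883 and 172, 2094 and 100, 1951 and 154, 1708 and 212, 3946 and 4, 1883 and 142, and 2141 and 120, in the same order. The median log2 difference of the 12 targets, 1.74 with Actb, was 2.18 with column totals, 2.30 with Actg1, 2.23 with Hprt, 2.40 with Tbp, 2.29 with Ppia and Ywhaz, 2.17 with Gusb, 3.68 with Tfrc and 2.39 with the geometric mean.

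Leaving out 1 library gave 0 to 296 higher and 0 to 37 lower genes at an adjusted p under 0.05, and 1152 to 2261 and 128 to 273 at the threshold of the study. Scaled to Actb these were 0 to 2 and 0, and 682 to 1339 and 426 to 1223. The log2 difference of Actb ranged from 0.27, without luteolin replicate 2, to 0.56. Hprt ranged from -0.18 to 0.024, Gusb from -0.077 to 0.095 and Ywhaz from -0.20 to 0.034. The SD of Actb ranged from 0.197 to 0.366, of Hprt from 0.103 to 0.176, of Tbp from 0.125 to 0.269 and of Ywhaz from 0.116 to 0.212. With 3 libraries per group, ratios could not reach an exact p under 0.1.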
